A study of Mus musculus with 5 samples.

Results

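The collagen chains are the 44 genes, of 51912 listed, whose symbol is Col, a type number, a and a chain number. They were taken by symbol alone and comprise 11 fibrillar chains, 6 collagen IV chains of the basement membrane and 27 chains of other classes. Of these, 41 passed the filter on low counts, namely 10 fibrillar, 6 collagen IV and 25 other chains. The libraries were made from total RNA of the dorsolateral prostate of male mice aged 3 months, all homozygous for a loxP-flanked growth hormone receptor gene (Ghrflox/flox). The 2 libraries labelled Ghr deletion came from mice that also carried ROSA26Cre-ERT2+/0, a tamoxifen-inducible Cre recombinase placed in the broadly expressed ROSA26 locus. The 3 Tamoxifen-control libraries came from mice without Cre, so the presence of Cre and the deletion cannot be told apart. Mice of both groups were given 5 daily doses of tamoxifen (250 mg/kg) and were sampled 1 month later. The study's design text describes the libraries as biological replicates. Depth was 31740687 and 32782683 expected counts for deletion replicates 1 and 2, against 19517831, 29705618 and 41553558 for control replicates 1 to 3.

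Collagens are the main fibrous proteins of the extracellular matrix, and each molecule is a triple helix wound from chains of the same or of different genes. Fibrillar collagens form the rope-like fibrils that give tissue its tensile strength, and collagen IV forms the sheet-like network of basement membranes under epithelia and around vessels and muscle cells. In the prostate, fibroblasts and smooth muscle of the stroma surround the glands and are known sources of fibrillar collagen. Because these are bulk samples, fewer cells of a type and less RNA per cell cannot be told apart. Abundance across libraries is given below as CPM, the count scaled to the TMM-adjusted library size, and comparison between genes uses TPM, which corrects for transcript length.

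The libraries also differed in genes outside the collagens. Ghr, counted over the whole gene, had 21.5 and 10.2 CPM in the deletion libraries, against 10.1, 11.8 and 13.2 CPM in the controls, so its whole-gene count did not fall with the label (log2 fold change 0.44 with SE 0.35). The flanked exon is not named in the labels, and each direction below belongs to the label, not to a measured loss of Ghr. The 8 genes used as markers of prostate secretory cells summed to 1.82 and 180.0 CPM in the deletion libraries, against 54.3, 2360.3 and 6.04 CPM in control replicates 1 to 3. The 8 seminal vesicle genes summed to 104999 and 183272 CPM in the deletion libraries, against 451761, 234412 and 234784 CPM in the controls. Of these 8 genes 6 were lower in both deletion libraries than in each control, against 12.5% of all tested genes. The median log2 fold change of the 8 was -7.48. Svs2 and Pate4 overlapped between the groups, at 0.12 and 0.25. The controls were not alike. Svs1 had 0.0454 and 7.90 CPM in the deletion libraries, against 32915, 22520.0 and 58.6 CPM in control replicates 1 to 3. Svs3a, Svs3b and Svs6 were likewise far lower in control replicate 3 than in the other controls, at 22.4, 38.8 and 70.2 CPM. Msmb, a defining secretory gene of the prostate, had 0 and 0.429 CPM in the deletion libraries, against 11.1, 112 and 0.0441 CPM in the controls, so it was at or near 0 in 3 of the 5 libraries. Of 8 adipocyte genes 6 were higher in both deletion libraries than in each control, against 10.8% of all tested genes. The median log2 fold change of the 8 was 2.30, and 4 of them had under 3 counts in a library. Plin4 and Pparg overlapped between the groups. The sum of the 8, most of it Plin4, also overlapped. It was 63.6 and 105 CPM in the deletion libraries, against 44.6, 44.5 and 84.8 CPM in the controls. The part of these marker levels in the results below was not tested. Across the 18590 genes tested, edgeR's quasi-likelihood test called 0 after adjustment and gave 792 an unadjusted p under 0.05, while DESeq2 called 81 after adjustment.

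The 6 collagen IV genes lie in 3 head-to-head pairs in the mouse genome (GRCm38). Promoter sequences are given for Col4a1 with Col4a2 and for Col4a6 with Col4a5. The part of promoter layout or sequence in the levels of these genes was not tested. Col4a1 (chromosome 8, 11198423 to 11312826, minus strand) and Col4a2 (chromosome 8, 11312805 to 11449287, plus strand) are read away from each other, and their annotated exons share 22 bases at the starts. Their RefSeq windows (GRCm38.p6), which run from 250 bases before to 50 bases after each start, share 78 bases, in capitals below and read on opposite strands.
Col4a1, chr8:11312777-11313076, minus strand: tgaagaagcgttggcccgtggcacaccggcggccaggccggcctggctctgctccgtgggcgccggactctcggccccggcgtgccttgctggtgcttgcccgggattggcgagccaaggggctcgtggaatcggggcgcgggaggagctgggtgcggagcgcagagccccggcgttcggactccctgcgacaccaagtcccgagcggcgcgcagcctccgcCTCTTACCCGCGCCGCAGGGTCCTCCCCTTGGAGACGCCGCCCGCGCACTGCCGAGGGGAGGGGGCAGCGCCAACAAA
Col4a2, chr8:11312555-11312854, plus strand: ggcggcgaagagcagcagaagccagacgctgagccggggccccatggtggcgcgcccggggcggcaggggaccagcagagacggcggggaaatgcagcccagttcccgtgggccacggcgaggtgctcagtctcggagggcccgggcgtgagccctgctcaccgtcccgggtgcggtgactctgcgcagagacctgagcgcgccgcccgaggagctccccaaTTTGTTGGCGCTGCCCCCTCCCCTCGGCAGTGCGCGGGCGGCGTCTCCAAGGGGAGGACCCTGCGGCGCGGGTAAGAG
Col4a6 (chromosome X, 141165403 to 141474076, minus strand) and Col4a5 (chromosome X, 141475385 to 141689234, plus strand) have starts 1309 bases apart, so their windows share no base. Capitals mark a GC box (GGGCGG), known as a binding sequence of Sp1-family factors, or a CCAAT box, each on either strand.
Col4a6, chrX:141474027-141474326, minus strand: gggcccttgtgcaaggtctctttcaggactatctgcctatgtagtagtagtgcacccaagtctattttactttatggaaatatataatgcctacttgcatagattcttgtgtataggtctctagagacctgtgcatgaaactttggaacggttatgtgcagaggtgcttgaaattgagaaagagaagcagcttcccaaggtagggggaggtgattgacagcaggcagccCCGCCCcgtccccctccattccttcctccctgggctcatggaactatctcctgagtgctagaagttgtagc
Col4a5, chrX:141475169-141475468, plus strand: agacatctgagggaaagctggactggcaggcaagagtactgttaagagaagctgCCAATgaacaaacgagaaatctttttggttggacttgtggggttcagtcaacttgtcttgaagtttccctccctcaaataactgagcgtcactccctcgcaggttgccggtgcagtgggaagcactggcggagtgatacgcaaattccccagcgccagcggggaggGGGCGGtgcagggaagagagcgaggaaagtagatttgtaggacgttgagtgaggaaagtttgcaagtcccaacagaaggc

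A promoter window was present in the RefSeq table for 35 of the 44 members. The GC box was found in a window of 22 of these 35 genes (62.9%), against 35.7% of all 32851 windows. CCAAT was found for 13 members (37.1%), against 37.4% of windows, and the TATA sequence TATAAA for 5 (14.3%), against 13.6%. TTCNNNGAA, the palindrome that STAT5 is known to bind, was found for Col28a1 and Col6a5 (5.71%), against 8.30% of windows. Matches were counted on both strands, and 0 matches of different motifs overlapped. Some members have a second window, which raises their chance of a match.

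No collagen gene passed the test across all genes. By edgeR's quasi-likelihood test 0 of the 41 tested members were called in either direction (background 0%), with adjusted p-values from 0.874 to 1.00. DESeq2 also called 0 members, against 0.436% of all genes. At an unadjusted p under 0.05 there were 2 members (background 4.26%), Col15a1 on the lower side (background 3.10%) and Col6a4 on the higher side (background 1.16%). In CPM, 0 members were higher in both deletion libraries than in each control (background 10.8%), and 3 were lower in both (background 12.5%), namely Col5a3, Col9a3 and Col15a1. TPM, which is not TMM-scaled, gave another tally. In TPM 14 of the 41 members were higher in both deletion libraries (background 78.5%) and 0 lower in both (background 0.307%). The TMM factors were themselves higher in both deletion libraries, at 1.39 and 1.21, against 0.8305, 0.6558 and 1.092 in the controls. A higher factor gives a lower CPM for the same count and depth. The median log2 fold change of deletion over control was -0.03 for the fibrillar, -0.20 for the collagen IV and -0.31 for the other chains, against -0.01 for all genes tested. The chart of collagen fold changes shows intervals wide enough that 2-fold differences could have been missed for many members.

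**Figure D1:**
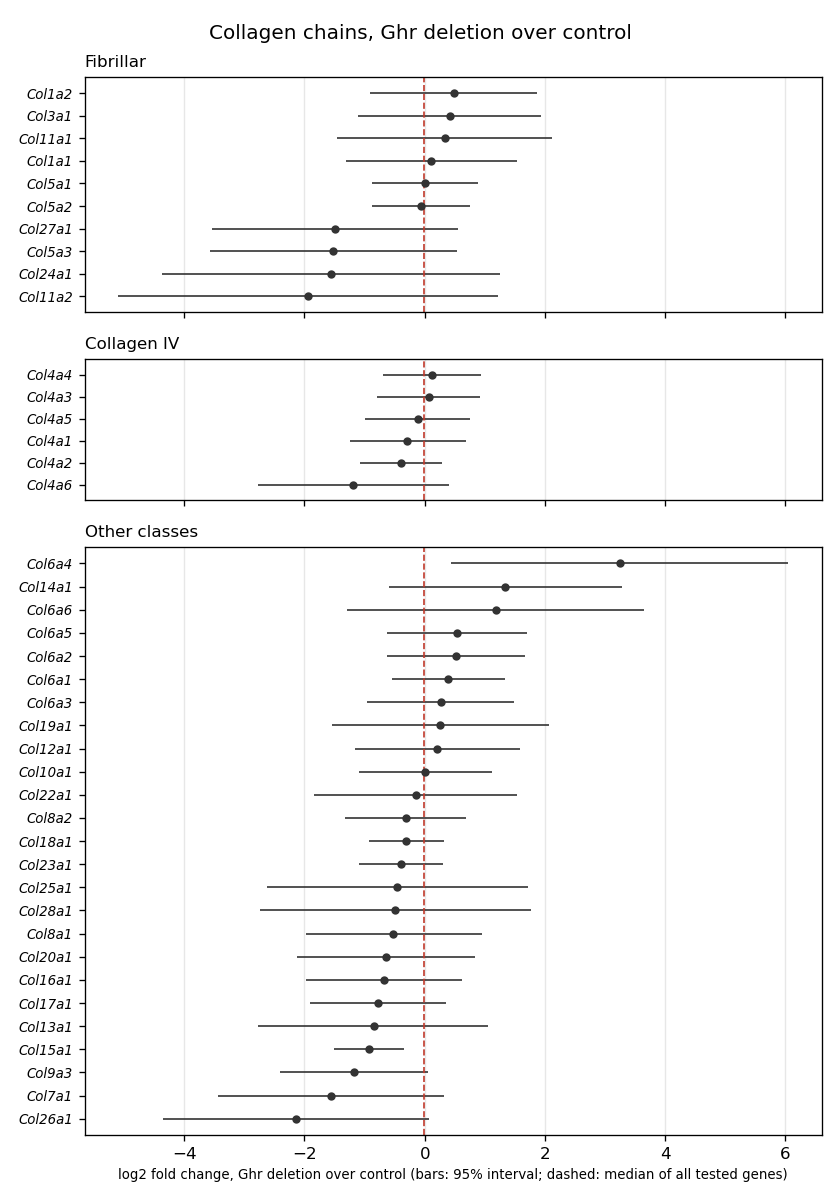
Log2 fold change of Ghr deletion over control for the 41 tested collagen chains, by class, with 95% intervals and a dashed line at the median of all tested genes. The intervals of Col6a4 and Col15a1 do not reach 0 before adjustment, and no adjusted p was below 0.874.

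The main fibrillar chains were high in 1 library of each group. Col3a1, the chain of the homotrimer collagen III that is rich in soft and distensible tissue, had 1355 and 595 CPM in the deletion libraries, against 585, 375 and 1233 CPM in the controls. Col1a2, which with Col1a1 builds collagen I, had 714 and 319 CPM in the deletion libraries, against 271, 226 and 610.4 CPM in the controls. Col1a1 had 304 and 124 CPM in the deletion libraries, against 105, 173 and 318 CPM in the controls. For each of these 3 genes, deletion replicate 1 and control replicate 3 were the highest libraries and the groups overlapped. The log2 fold changes were 0.42 (SE 0.62) for Col3a1, 0.48 (SE 0.56) for Col1a2 and 0.11 (SE 0.58) for Col1a1, with adjusted p-values of 0.903, 0.883 and 0.969 by edgeR. Without deletion replicate 1 all 3 lay on the lower side, at -0.30, -0.21 and -0.68, and without control replicate 3 all lay on the higher side, at 1.02, 1.05 and 0.62.

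Collagen V, which is known to start and thin collagen I fibrils, was also highest in deletion replicate 1 and control replicate 3. Col5a1 had 81.1 and 42.3 CPM in the deletion libraries, against 48.9, 55.9 and 80.3 CPM in the controls. Col5a2 had 107 and 60.6 CPM in the deletion libraries, against 89.2, 66.5 and 106 CPM in the controls. Their log2 fold changes were -0.00 (SE 0.36) and -0.06 (SE 0.33), with adjusted p-values of 1.00 and 0.970 by edgeR.

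The minor fibrillar chains had another pattern, led by control replicate 2. Col5a3, the third collagen V chain, had 11.5 and 10.9 CPM in the deletion libraries, against 12.2, 70.0 and 14.2 CPM in the controls. Col27a1, a fibrillar chain best known from cartilage, had 7.03 and 8.93 CPM in the deletion libraries, against 7.78, 48.3 and 11.1 CPM in the controls. Col24a1, known from developing bone, had 1.61 and 1.26 CPM in the deletion libraries, against 0.617, 10.3 and 1.81 CPM in the controls. Col11a2, a cartilage chain, had 0.408 and 0.782 CPM in the deletion libraries, against 0.309, 5.86 and 0.750 CPM in the controls. In each of these 4 genes control replicate 2 was at least 4.34-fold above the next library. Col11a1, the partner of Col11a2 in collagen XI, lacked that peak, with 5.17 and 4.82 CPM in the deletion libraries and 0.988, 3.80 and 7.04 CPM in the controls. Col2a1, the main cartilage collagen, was not tested and had 1 and 0 counts in the deletion libraries, against 0, 5 and 0 in the controls.

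**Figure D2:**
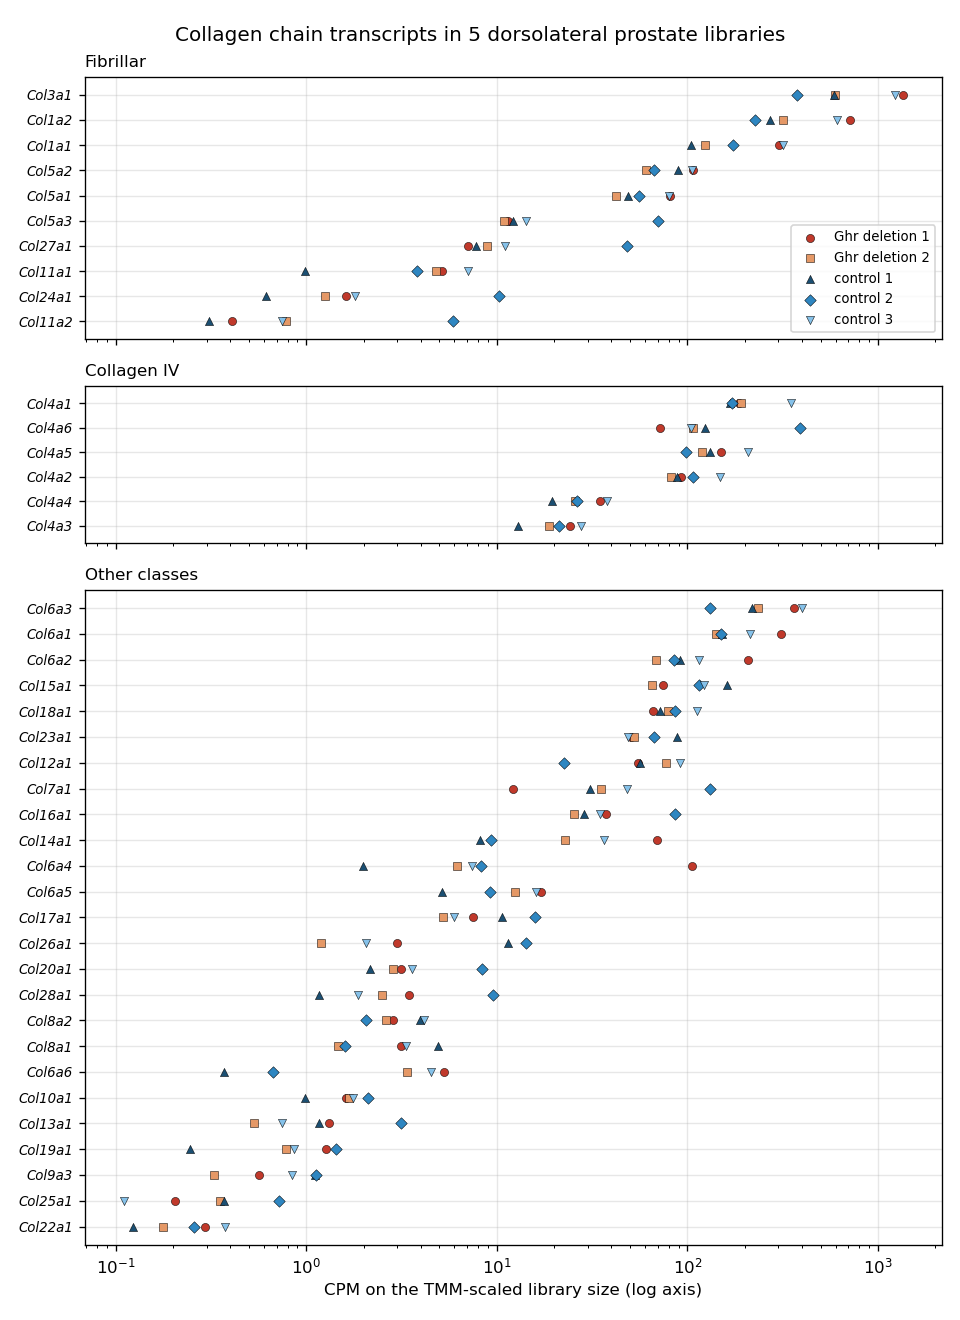
CPM of the 41 tested collagen chains in the 2 Ghr deletion and 3 control libraries, on a log axis, by class and ordered by mean level within a class. The main fibrillar chains are highest in deletion replicate 1 and control replicate 3, Col6a4 stands alone in deletion replicate 1, and several lower chains stand alone in control replicate 2.

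Among the collagen IV genes, Col4a1 and Col4a2 are the ubiquitous pair and form most basement membranes. Col4a1 had 186 and 191 CPM in the deletion libraries, against 167, 172 and 351 CPM in the controls. Col4a2 had 93.2 and 82.1 CPM in the deletion libraries, against 88.1, 107 and 149 CPM in the controls. Control replicate 3 was highest for both, and the other libraries lay within a narrow range. The log2 fold changes were -0.29 (SE 0.39) for Col4a1 and -0.39 (SE 0.28) for Col4a2, with adjusted p-values of 0.892 and 0.874 by edgeR. Without control replicate 3, Col4a1 was at 0.15 and Col4a2 at -0.16.

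Col4a3 and Col4a4, whose starts are 72 bases apart on chromosome 1, are partners best known from the kidney glomerulus. Col4a3 had 24.3 and 18.9 CPM in the deletion libraries, against 13.0, 21.2 and 27.6 CPM in the controls. Col4a4 had 35.0 and 25.6 CPM in the deletion libraries, against 19.4, 26.4 and 37.8 CPM in the controls. The libraries stood in the same order for both genes, and the groups overlapped.

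The X-linked pair moved apart. Col4a5 had 150.0 and 119.6 CPM in the deletion libraries, against 132, 98.3 and 207 CPM in the controls, with control replicate 2 the lowest. Col4a6, a chain known from the basement membranes of smooth muscle and of some epithelia, had 72.2 and 107 CPM in the deletion libraries, against 124, 388 and 104 CPM in the controls, with control replicate 2 the highest. The log2 fold change was -0.11 (SE 0.35, adjusted p = 0.947) for Col4a5 and -1.19 (SE 0.65, adjusted p = 0.874) for Col4a6 by edgeR. Without control replicate 2 the value of Col4a6 was -0.34.

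Ratios between chains within a library do not depend on library scaling. Of the 8 ratios computed, Col4a4 over Col4a3 varied least and Col4a6 over Col4a5 most. Col4a4 over Col4a3 in TPM was 1.33 and 1.31 in the deletion libraries and 1.25, 1.06 and 1.15 in the controls. Col4a1 over Col4a2 was 2.02 and 2.46 in the deletion libraries and 1.80, 1.98 and 2.63 in the controls. Col4a6 over Col4a5 was 0.46 and 0.92 in the deletion libraries and 0.93, 5.39 and 0.50 in the controls. Its highest value was 11.7 times its lowest, against 1.25 times for Col4a4 over Col4a3 and 1.46 times for Col4a1 over Col4a2. With expected counts in place of TPM, the Col4a6 over Col4a5 spread was 8.19 times.

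**Figure D3:**
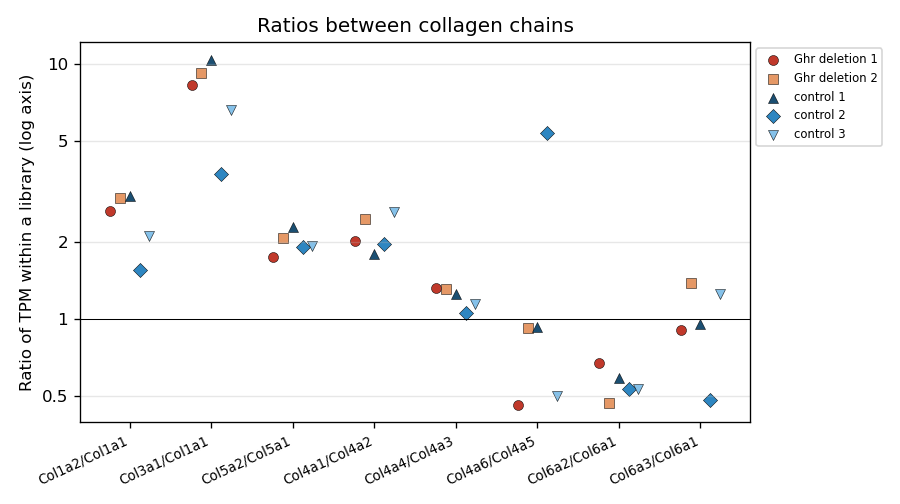
Ratios of TPM between collagen chains within each library, on a log axis, for the 2 Ghr deletion and 3 control libraries. Col4a6 over Col4a5 reaches 5.39 in control replicate 2 and is at most 0.93 elsewhere, while Col1a2 over Col1a1 is above 1 in each library.

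The collagen I molecule is known to hold more Col1a1 than Col1a2 chains. That is a ratio of protein chains, whereas the values here are of RNA. Col1a2 had the higher TPM in each library. Col1a2 over Col1a1 in TPM was 2.65 and 3.00 in the deletion libraries and 3.03, 1.56 and 2.11 in the controls. Col3a1 over Col1a1 was 8.29 and 9.21 in the deletion libraries and 10.42, 3.70 and 6.62 in the controls, lowest in control replicate 2. The fibril-starting pair was steadier, with Col5a2 over Col5a1 at 1.76 and 2.09 in the deletion libraries and 2.30, 1.92 and 1.93 in the controls. GC content was 58.9% for the longest Col1a1 transcript, 55.7% for Col1a2 and 52.5% for Col3a1, and its part in these ratios was not tested. With expected counts, Col3a1 over Col1a1 was 4.46 and 4.79 in the deletion libraries and 5.58, 2.17 and 3.88 in the controls. TPM divides by an effective length, which ran from 2766 to 3246 bases for Col3a1 and from 5214 to 5525 for Col1a1. Their longest transcripts have 5564 and 5930 bases.

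Collagen VI, the beaded filament network that surrounds cells, is built from Col6a1, Col6a2 and a larger chain. Col6a1 had 309.8 and 142 CPM in the deletion libraries, against 152, 150.2 and 213 CPM in the controls. Col6a2 had 209 and 68.7 CPM in the deletion libraries, against 91.5, 85.4 and 115 CPM in the controls. Col6a3, the usual larger chain, had 365 and 236 CPM in the deletion libraries, against 219, 132 and 398 CPM in the controls. Deletion replicate 1 was the highest library for Col6a1 and Col6a2 and deletion replicate 2 the lowest, so the deletion libraries enclosed all controls. The log2 fold changes were 0.39 (SE 0.39), 0.52 (SE 0.47) and 0.27 (SE 0.50), with adjusted p-values of 0.874, 0.874 and 0.920 by edgeR, and without deletion replicate 1 they were -0.28, -0.50 and -0.08.

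The alternative larger chains Col6a4, Col6a5 and Col6a6 lie next to each other on chromosome 9, and Col6a4 held the largest difference of the family. Col6a4 (105989454 to 106096783) had 106 and 6.18 CPM in the deletion libraries, against 1.98, 8.22 and 7.43 CPM in the controls. Deletion replicate 1, with 4653 expected counts, was 12.8-fold above the next library, and deletion replicate 2 lay inside the control range. The log2 fold change was 3.24 (SE 1.14; 95% interval 0.43 to 6.05, adjusted p = 0.874 by edgeR), and without deletion replicate 1 it was 0.06. Col6a5 had 17.0 and 12.4 CPM in the deletion libraries, against 5.18, 9.20 and 16.0 CPM in the controls. Col6a6 had 5.26 and 3.36 CPM in the deletion libraries, against 0.370, 0.668 and 4.50 CPM in the controls. The neighbours of Col6a4 thus lacked its peak in deletion replicate 1, and their log2 fold changes were 0.53 (SE 0.47) and 1.18 (SE 1.01), both with an adjusted p of 0.874. Without control replicate 3 the value of Col6a6 was 3.02. Exons of Col6a4 share 127 bases with Gm36993 and 162 with Gm47575, and those of Col6a6 share 63 with Gm38314, all on the opposite strand. Reads from these bases cannot be told apart if strand was not used in counting.

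The chains of the basement membrane zone lie between the membrane and the fibrils or span the basal cell surface. All 4 had log2 fold changes below 0, with a median of -0.85, and their summed level was 159.8 and 185 CPM in the deletion libraries, against 274, 348 and 288 CPM in the controls. In TPM, where 78.5% of all tested genes were higher in both deletion libraries, this sum separated upward. It was 48.8 and 46.8 TPM in the deletion libraries, against 27.0, 15.0 and 42.0 TPM in the controls. As a share of all counts the sum was narrowly lower. That share was 0.0222% and 0.0224% in the deletion libraries, against 0.0228%, 0.0228% and 0.0315% in the controls. Col15a1 (chromosome 4, 47208161 to 47313167), which encodes a proteoglycan collagen that links basement membrane to fibrils around vessels and muscle, had 74.2 and 65.4 CPM in the deletion libraries, against 161, 115 and 122 CPM in the controls. Its groups did not overlap in CPM. The mean was 69.8 ± 6.22 CPM (SD, n = 2) in the deletion libraries and 133 ± 24.5 CPM (SD, n = 3) in the controls. In TPM its groups overlapped, at 17.9 and 14.8 in the deletion libraries, against 14.3, 6.64 and 17.5 in the controls. The log2 fold change was -0.93 (SE 0.24, 95% interval -1.51 to -0.35), with an unadjusted p of 0.00791 and an adjusted p of 0.874 by edgeR's test across all genes, and with DESeq2 the adjusted p was 0.0597. Leaving out any single library gave values from -1.03 to -0.77. An exact two-sided rank-sum test of 2 against 3 libraries cannot give a p below 0.2. Col15a1 made up 1.38% and 2.74% of collagen TPM in the deletion libraries, against 5.64%, 5.60% and 2.75% in the controls, so on this scale deletion replicate 2 and control replicate 3 were nearly equal.

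The relative of Col15a1, Col18a1, whose product is the source of endostatin, had 65.9 and 79.2 CPM in the deletion libraries, against 71.5, 85.7 and 112 CPM in the controls (log2 fold change -0.31 with SE 0.25). Col7a1, the chain of the anchoring fibrils that fasten stratified epithelium, had 12.2 and 35.3 CPM in the deletion libraries, against 30.9, 131 and 48.2 CPM in the controls (log2 fold change -1.56 with SE 0.76, and for both genes an adjusted p of 0.874 by edgeR). Col17a1, the hemidesmosome collagen of basal cells, had 7.49 and 5.20 CPM in the deletion libraries, against 10.7, 15.9 and 5.93 CPM in the controls. Both epithelial genes were highest in control replicate 2, and without that library the value of Col7a1 was -0.74. The 8 basal epithelial markers summed to 419.6 and 601 CPM in the deletion libraries, against 468, 1124 and 528 CPM in the controls. Without Dst, which made up most of that sum, the other 7 summed to 134 and 118 CPM in the deletion libraries, against 159, 202 and 142 CPM in the controls. The part of these markers in the levels of Col7a1 and Col17a1 was not tested.

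FACIT collagens sit on the surface of fibrils. Col14a1, known from the stroma of many organs, had 69.4 and 22.9 CPM in the deletion libraries, against 8.21, 9.30 and 36.7 CPM in the controls. On the log2 scale the difference was 1.34 (SE 0.79), not called by edgeR (adjusted p = 0.874), and control replicate 3 lay between the deletion libraries. Without deletion replicate 1 the value was 0.34, and without control replicate 3 it was 2.39. Col12a1 had 54.9 and 77.0 CPM in the deletion libraries, against 56.4, 22.6 and 91.6 CPM in the controls. Col16a1 had 37.3 and 25.4 CPM in the deletion libraries, against 28.7, 86.3 and 35.0 CPM in the controls, with control replicate 2 again the highest. Col9a3, a cartilage chain, had 24.9 and 13 expected counts in the deletion libraries, against 18, 22 and 38 in the controls, or 0.567 and 0.328 CPM against 1.11, 1.13 and 0.838 CPM. Its groups did not overlap in CPM (log2 fold change -1.18, SE 0.50, adjusted p = 0.874), and 234 of its exon bases also lie in exons of Tcfl5 on the opposite strand, whose reads cannot be told apart if strand was not used in counting. Col19a1, Col20a1 and Col22a1 ranged from 0.123 to 8.37 CPM over the libraries, and Col9a1 and Col9a2 had at most 18 counts in a library and were not tested.

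The remaining classes were low, apart from Col23a1. This transmembrane collagen had 50.6 and 52.5 CPM in the deletion libraries, against 88.3, 67.0 and 48.8 CPM in the controls. Col26a1, a secreted chain known from testis and ovary, had 2.99 and 1.19 CPM in the deletion libraries, against 11.5, 14.3 and 2.07 CPM in the controls. On the log2 scale the difference was -2.14 (SE 0.90), not called by edgeR (adjusted p = 0.874), and control replicate 3 lay between the deletion libraries. Leaving out deletion replicate 1 gave -2.97, and leaving out deletion replicate 2 gave -1.62. Col28a1, known from Schwann cells, had 3.47 and 2.50 CPM in the deletion libraries, against 1.17, 9.56 and 1.87 CPM in the controls. The 8 Schwann and nerve genes summed to 28.4 and 37.7 CPM in the deletion libraries, against 30.2, 106 and 29.3 CPM in the controls. Their part in the level of Col28a1 was not tested. The short-chain network collagens Col8a1, Col8a2 and Col10a1 and the transmembrane chains Col13a1 and Col25a1 ranged from 0.110 to 4.94 CPM.

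Fibrillar chains took the largest share of collagen TPM in each library, at 61.4% and 51.0% in the deletion libraries and 48.4%, 37.3% and 57.5% in the controls, or 56.2% ± 7.38 (SD, n = 2) against 47.7% ± 10.1 (SD, n = 3). Collagen IV took 10.4% and 18.2% in the deletion libraries and 16.4%, 26.2% and 16.9% in the controls, or 14.3% ± 5.48 against 19.8% ± 5.49. Both differences are smaller than or close to the spread between libraries of a group, and the groups overlapped. Col3a1 ranked first of the 44 chains in each library, with 40.5% and 33.2% of collagen TPM in the deletion libraries and 31.8%, 17.8% and 36.9% in the controls. Col1a2 ranked second in each library but control replicate 2, where Col4a6 took 13.6% and ranked second. In CPM, which is not corrected for length, Col4a6 stood above Col3a1 in control replicate 2, at 388 against 375.

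**Figure D4:**
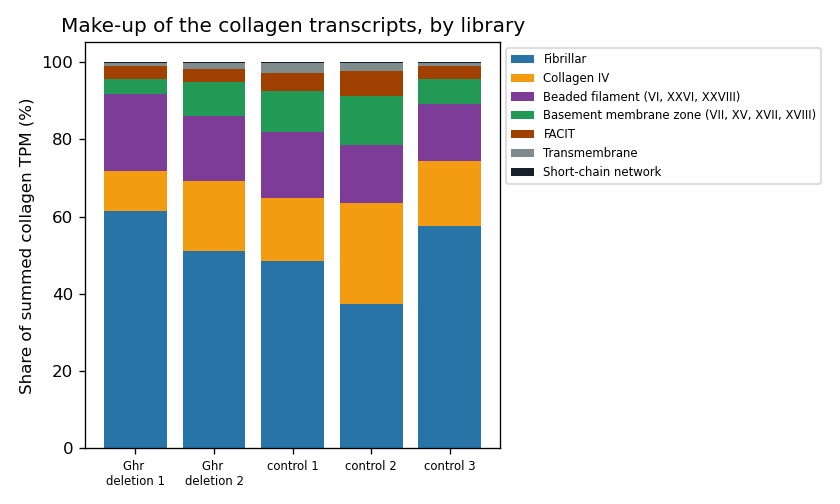
Share of summed collagen TPM by class in the 2 Ghr deletion and 3 control libraries, as stacked bars that each add up to the whole. The fibrillar share runs from 37.3% in control replicate 2 to 61.4% in deletion replicate 1, and the collagen IV share runs the other way, from 26.2% to 10.4%.

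Summed over all 44 chains, collagen reached 4552 and 2558 CPM in the deletion libraries, against 2618, 2812 and 4533 CPM in the controls. Deletion replicate 1 and control replicate 3 were nearly equal, and the other 3 libraries lay well below them. The 12 fibroblast genes outside the collagens summed to 1053 and 477 CPM in the deletion libraries, against 607, 264 and 559 CPM in the controls, and the 10 smooth muscle genes to 6708 and 7335 CPM, against 5951, 2509.7 and 8220.3 CPM. The lowest sums of both lists were in control replicate 2. All 12 and all 10 genes were tested, their median log2 fold changes were 0.06 and 0.11, and their part in the collagen levels was not tested.

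Control replicate 2 stood apart in the collagens. In 10 of the 41 tested members (24.4%) it was over 2-fold above every other library, against 6.91% of all tested genes, and the only other member with such a library was Col6a4, in deletion replicate 1. The 10 were Col11a2, Col24a1, Col27a1, Col5a3, Col4a6, Col7a1, Col13a1, Col16a1, Col20a1 and Col28a1. Transcript GC content moved with this. Spearman's rho was taken between GC percent and the level in a library relative to the mean of the libraries. For control replicate 2 it was 0.40 over the 41 members and 0.35 over 18538 tested genes. For deletion replicates 1 and 2 it was -0.45 and -0.44 over the members, and -0.37 and -0.26 over the tested genes. For control replicates 1 and 3 it was 0.17 and -0.18 over the members, and -0.06 and 0.04 over the tested genes. The log2 fold change of deletion over control fell with GC content, with rho of -0.49 over the members and -0.38 over all genes, where genes share libraries and are not independent replicates. The 21 members with GC content from 55.1% to 62.9% had a median log2 fold change of -0.65, and the 20 with less GC had 0.09. When offsets from 20 bins of GC content were added, an analysis chosen after seeing the data, the median of the other chains was -0.01, Col15a1 was at -0.65 and 0 members passed.

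**Figure D5:**
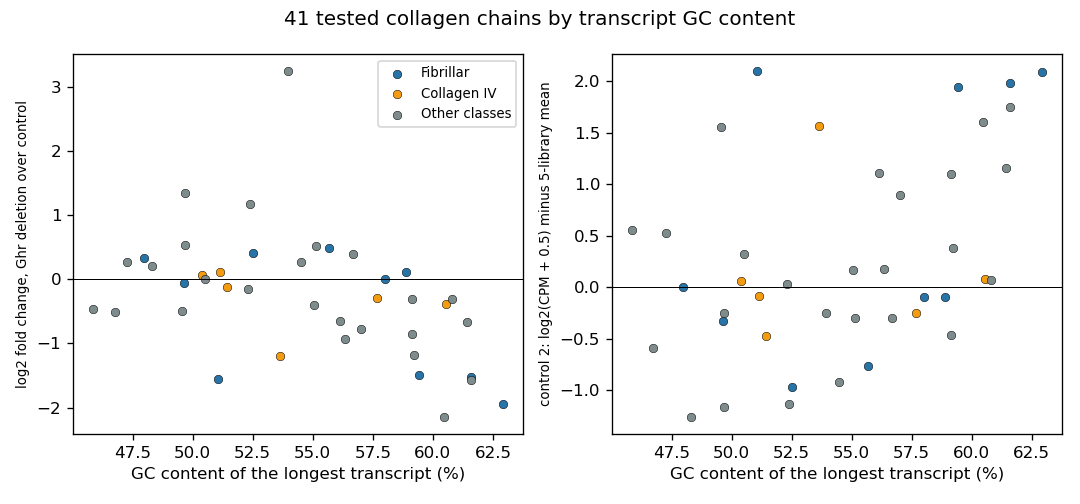
The 41 tested collagen chains by GC content of their longest transcript, against the log2 fold change of Ghr deletion over control (left) and against the level in control replicate 2 relative to the mean of 5 libraries (right). Chains with high GC content lie lower on the left (rho -0.49) and higher on the right (rho 0.40).

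The machinery that folds, trims and binds collagen showed 0 called genes in 3 lists. Of 24 tested genes for modification and folding in the endoplasmic reticulum, 0 were called in either direction, and the median log2 fold change was -0.14. P4ha2, a prolyl hydroxylase subunit that stabilises the helix, had 6.13 and 5.50 CPM in the deletion libraries, against 19.1, 14.9 and 8.09 CPM in the controls (log2 fold change -1.27, SE 0.40). P3h2, a prolyl 3-hydroxylase that acts on collagen IV among others, had 4.36 and 4.97 CPM in the deletion libraries, against 1.98, 1.28 and 2.73 CPM in the controls (log2 fold change 1.21, SE 0.40). Both had an adjusted p of 0.874 by edgeR. In this list the groups did not overlap for 1 gene on the higher side, P3h2 (background 10.8%). On the lower side there were 5 such genes (background 12.5%), P4ha2 and Tmem38b among them. The third gene by p was Tmem38b, an ion channel of the endoplasmic reticulum needed for collagen synthesis, at -0.36 (SE 0.21).

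Of 14 tested genes for propeptide removal and cross-linking 0 were called in either direction, with a median log2 fold change of -0.19. Those with the smallest p were Pcolce2, an enhancer of propeptide removal, at 1.24 (SE 0.74), and the propeptide proteases Adamts3 at -0.47 (SE 0.35) and Adamts14 at -0.90 (SE 0.65). Pcolce2 was at 0.23 without deletion replicate 1, and Adamts14 was at -0.18 without control replicate 2 and at -0.43 without deletion replicate 1. Between the groups 0 genes of this list stood apart on the higher side (background 10.8%) and 2 on the lower (background 12.5%). Of 10 tested collagen receptor genes 0 were called in either direction, with a median of 0.28. Itga2, the integrin subunit that with Itgb1 binds collagen on epithelium, had 4.22 and 6.41 CPM in the deletion libraries, against 1.79, 2.31 and 3.33 CPM in the controls (log2 fold change 1.09, SE 0.39). Itga11, its counterpart on fibroblasts, was at -1.18 (SE 0.46) and Ddr1, a collagen-activated receptor kinase, at -0.55 (SE 0.24). The groups did not overlap for these 3 genes, which are the 1 higher (background 10.8%) and 2 lower (background 12.5%) such genes of the list. The adjusted p was 0.874 by edgeR for each of these genes.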

How the data were processed

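Per the labels' protocols, RNA came from flash-frozen tissue and the library kit was Illumina's TruSeq for stranded total RNA. The submitters' processing notes name STAR 2.5.3a, RSEM 1.3.0 and GRCm38. Neither the authors' annotation nor their strand setting is stated in those notes. The authors deposited 1 table per sample with expected counts, in which reads that match several genes are shared out by a model, with TPM values, and with an effective length per gene, which is neither a count nor a level.

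Rounded expected counts were filtered by group (filterByExpr) and TMM-scaled. A model with a single group term was tested in edgeR 4.0.16 (R 4.3.3, quasi-likelihood), and p-values were adjusted over 18590 genes by Benjamini-Hochberg. Standard errors were derived from the fold change and the F statistic. Alternatives used DESeq2 1.42.0 and limma 3.58.1. Symbols matched 99.5% of identifiers, and coordinates are from GENCODE M21 on GRCm38. Depth ran from 19517831 to 41553558 counts, and precision at low counts is limited by counting error. Exons of 10 of the 44 members share bases with a gene on the opposite strand.

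The members, classes and gene lists were chosen with earlier results of these data known. Every member is accounted for. Fold changes are given for 14 members of the main networks, for the 5 members with the smallest p in each direction, and for the 3 genes with the smallest p in each pathway list.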

Additional observations from a re-analysis of the deposited data

How the results depend on the processing

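The count of 0 called collagen genes held under both other scalings, both other count filters, DESeq2, length offsets, GC offsets and each left-out library. limma-trend on log2(TPM + 1) called 5 (Col14a1, Col11a1, Col6a4, Col6a6, Col6a5) and also 5 genes of the pathway lists, and with a pseudocount of 0.1 it called 2 and 2. These are 12.2% and 4.88% of members, near the 12.3% and 3.94% of all genes. TPM moved the median of all genes by 0.87 and 1.33, and library size alone by 0.58, so values printed under these are relative to it. The TPM tests themselves were not centred, so Col6a6 and Col11a1 were called on the higher side at 0.43 and 0.60, which are -0.44 and -0.27 relative to the median. Pcolce2 and Itga2 were likewise called on the higher side with TPM + 1, though relative to the median they were at -0.50 and -0.00. The replicate numbers match only in the titles. Deviations of same-numbered libraries from their group means correlated at 0.281 and 0.296 over 2 pairs. The deviations of the 2 deletion libraries mirror each other, so these pairs are not independent and cannot show that the numbers mark a real pairing. The replicate block called 5 collagen genes (Col26a1 -2.74, Col14a1 2.19, Col7a1 -1.62, Col4a6 -1.31, Col6a6 3.00), 2 pathway genes and 1126 genes in all (12.2% of members, 6.06% of genes). Collagen genes at an unadjusted p under 0.05 numbered 1 with library size only, 4 without a low-count filter, 5 with DESeq2, 17 and 13 with TPM, 4 with length offsets, 15 with the block, 1 with GC offsets and from 1 to 8 with a library left out. The shares of all genes were 6.11%, 4.18%, 6.69%, 46.1% and 36.1%, 4.03%, 18.5%, 3.17%, and from 1.11% to 13.2%, in that order. The collagen IV median was 0.31 with TPM + 1 and 0.19 with the block, and that of the other chains -0.12 with the block and -0.01 with GC offsets. With a library left out, the medians ran from -0.61 to 0.34 (fibrillar), -0.34 to 0.18 (collagen IV) and -0.44 to -0.03 (other).

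Directions turned for these log2 fold changes, and the cause was not tested. Without a low-count filter Col5a1 was at 0.03, and with length offsets Col5a1 was at 0.02 and Col18a1 at 0.11. With TPM + 1 the values were 0.27 (Col5a1), 0.30 (Col5a2), 0.54 (Col4a1), 0.41 (Col4a2), 0.41 (Col4a5), 0.58 (Col18a1), -0.44 (Col6a6), 0.19 (Tmem38b), -0.50 (Pcolce2) and -0.00 (Itga2). With TPM + 0.1 they were 0.07 (Col5a1), 0.15 (Col4a1), 0.06 (Col4a2), 0.08 (Col4a5), 0.25 (Col18a1) and 0.00 (Tmem38b). With the block they were 0.16 (Col5a1), 0.06 (Col5a2), 0.15 (Col4a1) and 0.23 (Col4a5). With GC offsets they were 0.39 (Col5a1), 0.06 (Col4a1), 0.11 (Col4a2), 0.18 (Col18a1) and 0.00 (Ddr1). With a library left out, ranges that crossed 0 were -0.68 to 0.62 (Col1a1), -0.21 to 1.05 (Col1a2), -0.30 to 1.02 (Col3a1), -0.55 to 0.39 (Col5a1), -0.53 to 0.30 (Col5a2), -0.48 to 0.15 (Col4a1), -0.33 to 0.22 (Col4a5), -0.28 to 0.85 (Col6a1), -0.50 to 1.11 (Col6a2) and -0.08 to 0.77 (Col6a3). Where deletion replicate 1 or 2 was left out, the lone library was assumed to vary like the controls.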
